A study of Mus musculus with 29 samples.

Results

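The genes described here make prostaglandins and leukotrienes or break prostaglandins down. They are Ptgs1, Ptgs2, Ptges, Ptgis, Tbxas1, Hpgd, Alox5ap and Ltc4s, read from the probe sets that the array annotation gives to exactly 1 of these symbols. Of the 8 genes, 7 had such a probe set, with 10 probe sets in all, out of 12394 genes and 22690 probe sets. No value is given for Ptgs1, since no probe set was listed under its symbol alone. Where a gene had several probe sets, the one with the highest mean over the arrays of a tissue was used. The genes were taken up with earlier results of these data known, and the probe set of each was chosen by its mean level on these arrays, so their calls describe these arrays and are no independent evidence.

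Expression was measured on 29 arrays of bone marrow and spleen from mice that carried MLL-ENL-ERtm and from wild-type mice. MLL-ENL is a leukaemia fusion protein, and its ERtm part, a mutated hormone-binding domain of the oestrogen receptor, ties its activity to tamoxifen. Every mouse, wild type included, ate chow with tamoxifen at 300 mg/kg, so no array shows tissue without the drug. The sources used here do not give the promoter of the construct or the ages of the mice. The marrow groups were proliferation (n = 4, 7 months of tamoxifen), with rapid division and little DNA damage response, transition (n = 4, 7 to 8 months), with slower division and an active damage response, senescence (n = 3, 8 months) and wild type (n = 4, 1 array at 8 and 3 at 7 months). The spleen groups were early disease (n = 3, 7 months), with division and a damage response, progression (n = 3, 9 or 10 months), with partial senescence, terminal disease (n = 3, 19, 21 and 23 months), with division and no senescence, and wild type (n = 5, 8, 9, 11, 11 and 24 months). The labels call the arrays of a group biological replicates.

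Prostaglandins and leukotrienes are short-lived lipid signals made from arachidonic acid, which phospholipases release from membranes. The cyclooxygenases Ptgs1 and Ptgs2 turn arachidonic acid into prostaglandin H2, from which terminal synthases make prostaglandin E2 (Ptges), prostacyclin (Ptgis) or thromboxane (Tbxas1), and Hpgd oxidises prostaglandins and so ends their action. In the other arm, Alox5ap presents arachidonic acid to 5-lipoxygenase, and Ltc4s joins the product to glutathione to give the cysteinyl leukotriene C4. In blood-forming tissue, neutrophils and monocytes are known as makers of leukotrienes, platelets as makers of thromboxane and vessel cells as makers of prostacyclin.

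Values are log2 levels, and differences are log2 differences ± the standard error of a limma fit over the 4 groups of a tissue, with p-values adjusted over all 12394 genes. A gene was called when its adjusted p was under 0.05. The median level of an array was 8.11 to 8.29 in marrow but 6.73 to 6.90 in spleen. Levels were therefore set side by side within a tissue only. No fold is given for a difference whose lower group had a mean less than 1 unit above the arrays' lower quartile, which was 6.13 to 6.32 for marrow and 4.56 to 4.81 for spleen. Proliferation marrow 1 lay 3.49 above the wild-type mean in markers of fat and muscle, and wild-type spleen 3 and early spleen 1 lay 4.97 and 1.00 above it in markers of the exocrine pancreas. The wild-type pancreas mean (7.36) includes wild-type spleen 3 itself (12.33), which makes both distances smaller. Early spleen 1 read 8.36, and the progression and terminal arrays at most 5.86 and 5.59. Xist, the RNA of the inactive X chromosome of females, was between 12.61 and 13.32 on all proliferation and transition arrays, and near 7 on senescence 2 and 3 and wild-type marrow 1 and 2 (7.02 to 7.61). In spleen it was high on early 1, on the 3 terminal arrays and on wild-type 1 and 5 (11.58 to 12.80) and low on the rest (4.97 to 5.73). The 10 measured neutrophil markers lay above the lower quartile on every array of both tissues. In whole tissue, fewer cells of a type and less RNA per cell cannot be told apart.

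In marrow the members called were Hpgd in the proliferation state and Hpgd and Ptgs2 in transition, and all 3 calls were of higher levels. Of the 7 members, 1 was called in proliferation against wild type (0.282% of all genes), 2 in transition (0.42%) and 0 in senescence (0.0484%). The median difference of the 7 members was 0.13, 0.14 and 0.17 in the 3 comparisons, against 0.01, 0.04 and 0.00 over all genes. No member was called between the marrow states, where limma called 0% of all genes. The 3 comparisons share the 4 wild-type arrays.

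**Figure D1:**
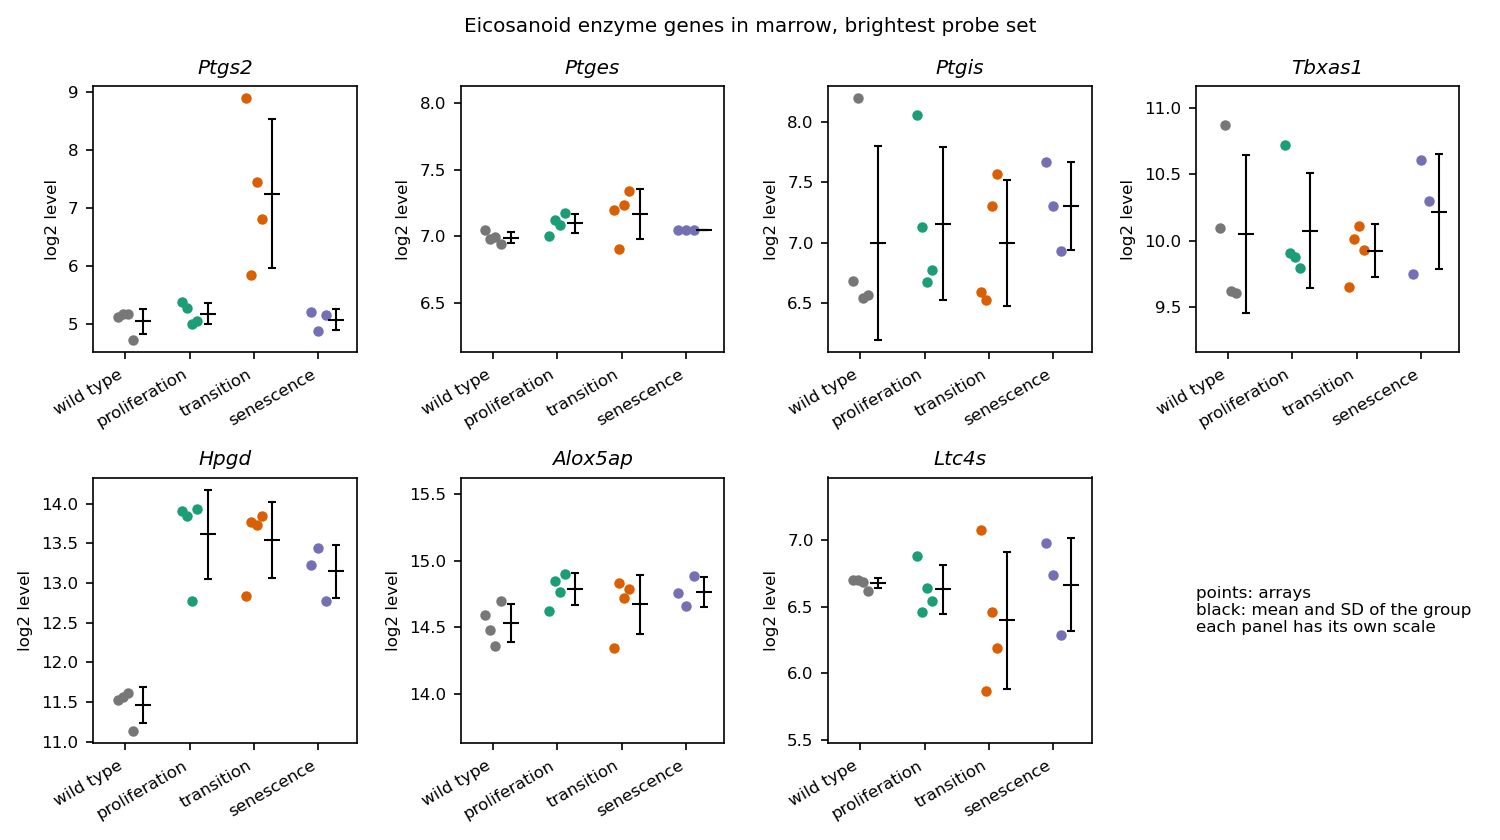
Log2 levels of the 7 measured genes in marrow. Each point is 1 array, the black marks give the mean and SD of a group (n = 4, 4, 4 and 3 from left to right), and each panel has its own scale. Ptgs2 stands out in the 4 transition arrays (5.85 to 8.89), and Hpgd lies higher in all 3 MLL-ENL-ERtm groups (12.77 to 13.93) than in wild type (11.13 to 11.62).

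Since Ptgs2 and Hpgd were the members called in marrow, the stretch from 250 bases before to 50 bases after their annotated starts is shown, from RefSeq on GRCm38.p6. The Ptgs2 stretch is chr1:150099781-150100080 and the Hpgd stretch chr8:56294302-56294601, both on the plus strand. Capitals mark matches, on either strand, to letters chosen with the sequences in view: TGACG (core of the cAMP response element, found in 20.8% of 32851 promoters of this length), CACGTG (E-box, 7.15%), TTNNGNAA (C/EBP, 40.7%), TGANTCA (AP-1, 7.81%), TATAAA (the letters of the box that places RNA polymerase, called TATA, 13.6%) and the kappaB motif (20.7%).
Ptgs2: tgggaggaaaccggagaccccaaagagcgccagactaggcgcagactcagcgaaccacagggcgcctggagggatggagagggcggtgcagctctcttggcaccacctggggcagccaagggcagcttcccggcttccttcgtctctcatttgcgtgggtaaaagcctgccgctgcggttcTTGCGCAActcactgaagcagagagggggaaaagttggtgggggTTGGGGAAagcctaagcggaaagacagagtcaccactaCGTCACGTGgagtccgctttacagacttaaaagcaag
Hpgd: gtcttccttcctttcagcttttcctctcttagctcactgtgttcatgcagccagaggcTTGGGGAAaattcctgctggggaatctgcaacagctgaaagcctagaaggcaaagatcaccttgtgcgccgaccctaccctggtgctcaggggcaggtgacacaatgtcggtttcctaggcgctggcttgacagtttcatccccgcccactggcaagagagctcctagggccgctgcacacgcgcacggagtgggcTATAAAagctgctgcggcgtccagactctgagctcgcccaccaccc
The Ptgs2 stretch held 1 core of the cAMP response element and 1 E-box that overlap, and 2 matches to the C/EBP letters. The core and the E-box began at positions 13 and 16, after the annotated start, and both C/EBP matches lay before it. The Hpgd stretch held 1 match to the C/EBP letters, before the annotated start, and 1 to the TATA letters, after it at position 4. Whether the TATA letters act as a TATA box was not tested. Of the other members with an entry, Ptges had 1 match to the C/EBP letters. Tbxas1 had 1 AP-1 match and 2 overlapping matches to the TATA letters, all before its start, and Ltc4s and Ptgs1 had no match. Ptgis and Alox5ap were not among the entries. These are matches of letters, and neither binding nor the place where transcription begins was measured.

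Ptgs2 is the inducible cyclooxygenase and a gene that many cells switch on within minutes of a stimulus. It was low in marrow, at the 12.9th percentile of genes over all arrays, and higher in transition than in the other groups. The transition arrays read 8.89, 5.85, 7.45 and 6.81. The proliferation arrays read 5.38, 5.29, 5.01 and 5.05, and the senescence arrays 5.21, 4.88 and 5.16. The wild-type arrays read 5.12, 5.18, 5.17 and 4.73. All 4 transition arrays lay above all 11 others, and the other 3 groups overlapped. Their spread was wide, with an SD of 1.28 in transition against 0.18 in proliferation, 0.18 in senescence and 0.21 in wild type. Transition exceeded wild type by 2.20 ± 0.43 (adjusted p = 0.040 by limma), proliferation by 2.07 ± 0.43 (adjusted p = 1.00) and senescence by 2.17 ± 0.46 (adjusted p = 1.00). The last 2 missed the threshold although the groups did not overlap, as was so for 0.791% of genes that lay higher in transition than in proliferation and 1.78% that lay lower in senescence than in transition. Outside transition the level lay below the lower quartile of the arrays, so no fold is given. Transition array 2 (5.85) lay below that quartile too. The transition mean (7.25) was below the median level of the marrow arrays (8.11 to 8.29).

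The call of Ptgs2 in transition did not hold throughout. It was lost without transition array 3 (2.13, adjusted p = 0.126) or 4 (2.35, 0.066) and without wild-type array 1 (2.22, 0.100), 2 (2.24, 0.058), 3 (2.24, 0.119) or 4 (2.09, 0.152), all by limma. It was also lost with the Xist level as a covariate (2.25, adjusted p = 0.106). The second Ptgs2 probe set read 5.92, 5.15, 5.26 and 5.57 in transition and 5.32, 5.10, 5.17 and 5.36 in wild type. It differed by 0.24 ± 0.14 and overlapped between the groups (adjusted p = 0.634 in a limma fit over 20393 probe sets).

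Ptgs2 was set beside the genes of the immediate early response, which include Fos, Jun and Egr1. The mean of 14 such genes, a list without Ptgs2, lay 2.05, 0.87, 0.20 and 1.01 above the wild-type mean on transition arrays 1 to 4. It lay 0.12 to 0.33 above that mean in proliferation, -0.05 to 0.47 in senescence and -0.23 to 0.22 on the wild-type arrays themselves. The array with the highest Ptgs2 level, transition 1, also had the highest list mean, while transition 3 had the second highest Ptgs2 level with a list mean inside the range of the other groups. Of the 14 genes, 1 was called higher in transition (0.42% of all genes were called in either direction) and 7 lay above wild type on all 4 arrays (1.9% of all genes). The difference between the 3' and 5' control probe sets of Gapdh, a measure of RNA quality, was 1.87, 1.36, 1.21 and 1.18 on transition arrays 1 to 4 and 1.57 to 1.83 in wild type. The part of these measures in the Ptgs2 result was not tested. The genes whose levels ran closest to Ptgs2 over the 15 marrow arrays were Egr1, Plk3 and Jun. Their root mean square distance from Ptgs2 after centring was 0.63, 0.64 and 0.65 log2 units, against a median of 1.14 over all genes. Ptgs2 itself varied over these arrays with an SD of 1.16, close to that median.

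**Figure D2:**
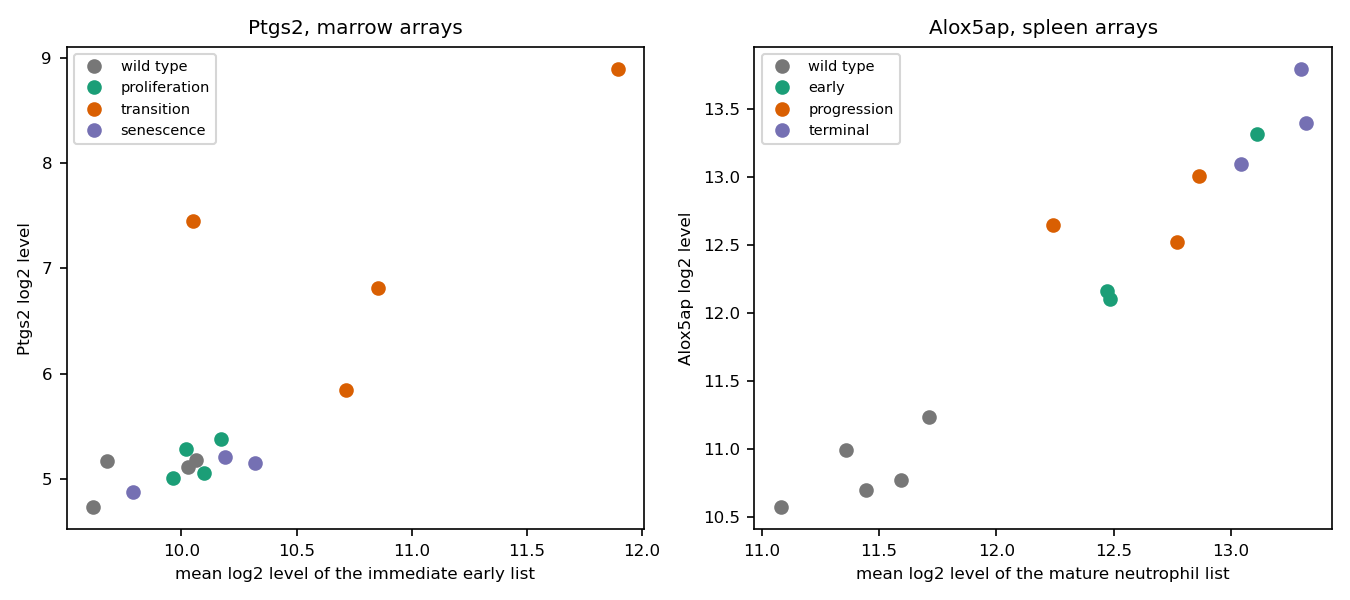
Left, Ptgs2 log2 level against the mean log2 level of 14 immediate early genes on the 15 marrow arrays. Right, Alox5ap log2 level against the mean of 10 mature neutrophil genes on the 14 spleen arrays. Each point is 1 array. Transition 3 has the second highest Ptgs2 level (7.45) at a list mean of 10.05, near those of the other groups. In spleen the wild-type arrays lie low on both axes.

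In spleen the same Ptgs2 probe set read 7.72, 3.78, 3.77, 3.70 and 6.47 on the wild-type arrays. The highest of these was from the mouse with 24 months of tamoxifen. The early arrays read 3.57, 3.59 and 6.07, the progression arrays 4.15, 4.39 and 3.59 and the terminal arrays 4.57, 4.44 and 5.11. All 3 disease groups overlapped with wild type, and the differences were -0.68 ± 0.86, -1.04 ± 0.86 and -0.38 ± 0.86 (adjusted p = 0.655, 0.419 and 0.781 by limma). The immediate early list was highest on terminal array 2 (1.53 above the wild-type mean), early array 3 (0.94) and wild-type array 5 (0.69). Early 3 and wild-type 5 were among the 3 spleen arrays with the highest Ptgs2 level, whereas terminal 2 was not. The second probe set stayed between 2.88 and 3.62 on all spleen arrays.

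In spleen the terminal synthase of prostacyclin, Ptgis, was lower and the leukotriene gene Alox5ap was higher in all 3 disease stages. Ptges was higher at the terminal stage. Of the 7 members, 2 were called at the early stage (15.9% of all genes), 2 in progression (19.3%) and 3 at the terminal stage (34.5%). The median difference of the members was -0.22, -0.15 and -0.38, against 0.03, 0.04 and 0.04 over all genes. No member was called between disease stages, where limma called 0% of genes in progression against early, 5.86% in terminal against progression and 6.61% in terminal against early. The 3 comparisons with wild type share its 5 arrays. Months of tamoxifen differed between the stages, with 7 at early, 9 or 10 in progression and 19 to 23 at the terminal stage. Stage and duration therefore cannot be told apart. Xist was also high on the 3 terminal and low on the 3 progression arrays, so sex cannot be told apart from stage between those groups.

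**Figure D3:**
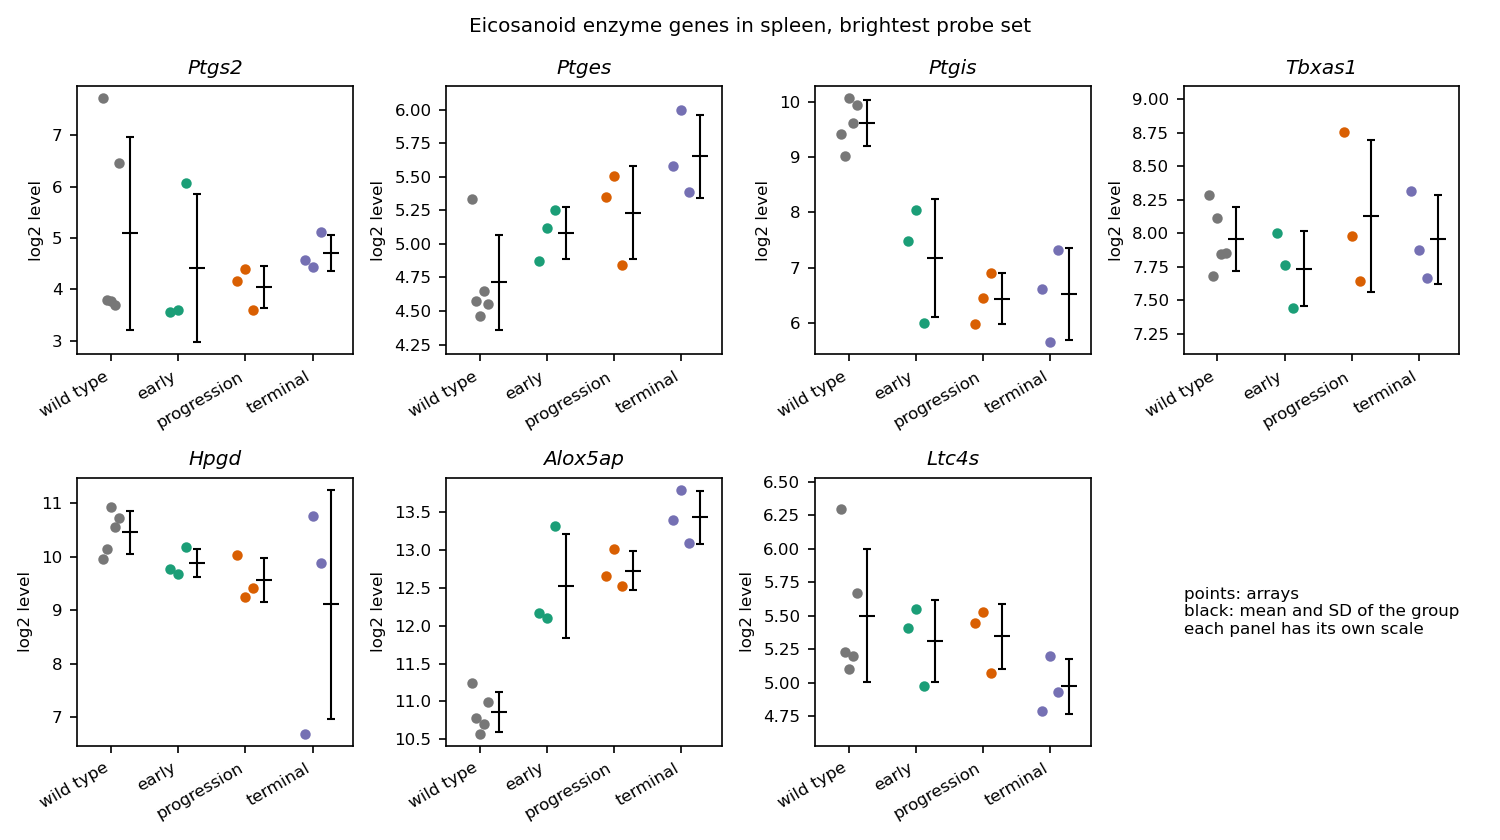
Log2 levels of the 7 measured genes in spleen, drawn as for marrow (n = 5, 3, 3 and 3 from left to right). Ptgis lies between 9.02 and 10.07 in wild type and between 5.65 and 8.05 in the disease groups. Alox5ap lies between 10.58 and 11.24 in wild type and between 12.10 and 13.79 in the disease groups.

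Ptges makes prostaglandin E2 and is often induced together with Ptgs2. Its brightest spleen probe set read 5.33, 4.57, 4.46, 4.65 and 4.55 in wild type. The early arrays read 4.87, 5.12 and 5.25, the progression arrays 5.35, 5.50 and 4.84, and the terminal arrays 5.58, 6.0 and 5.39. The terminal arrays lay above every wild-type array, as did 21.4% of all genes, while the other stages overlapped with wild type through its array 1, from 24 months of tamoxifen. That array (5.33) was the only wild-type array near the terminal months of 19 to 23. The other wild-type arrays, at 8 to 11 months, read 4.46 to 4.65. The part of duration in the terminal difference was not tested. The differences from wild type were 0.37 ± 0.21, 0.52 ± 0.21 and 0.94 ± 0.21 (adjusted p = 0.276, 0.102 and 0.00324 by limma). Progression passed without progression array 3 (0.71, adjusted p = 0.030) or without wild-type array 1 (0.67, adjusted p = 0.017). The wild-type mean (4.71) lay less than 1 unit above the arrays' lower quartile, so no fold is given. The second probe set was 0.41 ± 0.21 higher at the terminal stage, with overlap (adjusted p = 0.152 by limma over 20393 probe sets). Over the 14 spleen arrays Ubtd1, Dok2 and Mag ran closest to Ptges, at a distance of 0.17, 0.18 and 0.19 against a median of 0.48. Ptges itself varied over these arrays with an SD of 0.46.

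In marrow Ptges, read there by its other probe set, lay between 6.90 and 7.34 on all 15 arrays. It differed from wild type by 0.11 ± 0.10 in proliferation, 0.18 ± 0.10 in transition and 0.06 ± 0.11 in senescence, and no difference was called. The probe set used for spleen lay above wild type on all 4 proliferation arrays (0.34 ± 0.13, adjusted p = 0.382) and on all 3 senescence arrays (0.26 ± 0.14, adjusted p = 0.914, limma over 20393 probe sets). Of all genes 7.46% and 3.97% lay wholly above wild type in these states.

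Ptgis read 9.43, 9.02, 10.07, 9.61 and 9.94 in wild-type spleen. The early arrays read 7.48, 8.05 and 5.99, the progression arrays 5.97, 6.45 and 6.90 and the terminal arrays 6.61, 5.65 and 7.32. Every disease array lay below every wild-type array, as did 12.6%, 11.7% and 18.2% of all genes at the 3 stages, and the stages overlapped with each other. Ptgis was lower than wild type by 5.43-fold at the early stage (-2.44 ± 0.44, adjusted p = 0.00179 by limma). It was lower by 9.03-fold in progression (-3.17 ± 0.44, adjusted p = 0.000249) and by 8.50-fold at the terminal stage (-3.09 ± 0.44, adjusted p = 9.66e-05). Between progression and early the difference was -0.73 ± 0.49 (adjusted p = 0.743).

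Markers of vessels, stroma, lymphocytes and macrophages are given beside Ptgis. Of 8 endothelial markers 1, 1 and 4 were called lower at the early, progression and terminal stages, and of 8 stromal markers 1, 0 and 6, against 8.55%, 9.96% and 16.3% of all genes. The endothelial mean lay between 5.73 and 6.79 in wild type, 5.05 and 6.60 at the early stage, 5.77 and 6.45 in progression and 5.18 and 5.32 at the terminal stage. The stromal mean lay between 6.17 and 6.92 in wild type, 5.00 and 6.39 at the early stage, 5.99 and 6.37 in progression and 4.73 and 5.12 at the terminal stage. The endothelial and stromal means overlapped with wild type at the early stage and in progression, and lay below it at the terminal stage. All 7 T cell markers were called lower at each stage, with a mean of 9.33 to 9.71 in wild type and 7.07 to 8.40 in the disease groups. Of 11 B cell markers 8, 9 and 9 were called lower and 0, 2 and 0 higher. The B cell mean was 9.20 to 9.52 in wild type and 6.24 to 8.69 in disease. Of 9 tissue macrophage markers 6, 5 and 8 were called lower, with a mean of 10.36 to 10.92 in wild type and 8.35 to 9.83 in disease. The part of these cell types in the Ptgis result was not tested. The genes closest to Ptgis over the 14 spleen arrays were Cxcr6, Rras2 and Ccr7 (distance 0.47, 0.49 and 0.51 against a median of 1.56). Ptgis itself had an SD of 1.59 over these arrays. Cxcr6 and Ccr7 encode chemokine receptors of lymphocytes.

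In marrow no difference of Ptgis was called. The proliferation arrays read 8.06, 7.13, 6.67 and 6.77, the transition arrays 6.59, 6.52, 7.31 and 7.57, the senescence arrays 7.67, 7.30 and 6.93 and the wild-type arrays 6.68, 8.20, 6.54 and 6.57. Proliferation 1 and wild-type 2 were highest, and the same arrays had the highest means of 8 stromal markers (11.48 and 11.02, with 7.91 to 10.67 on the rest). The differences from wild type were 0.16 ± 0.39, 0.00 ± 0.39 and 0.30 ± 0.42, and all 4 groups overlapped.

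Tbxas1, the thromboxane synthase, was not called in any comparison. In marrow it lay between 9.61 and 10.87, and the 3 highest arrays were wild-type 2 (10.87), proliferation 1 (10.72) and senescence 2 (10.60). These also had the 3 highest means of 9 megakaryocyte and platelet markers (12.02, 11.80 and 12.07, with 8.37 to 10.69 on the rest). The part of platelets in the Tbxas1 level was not tested. The differences from wild type were 0.03 ± 0.28, -0.12 ± 0.28 and 0.17 ± 0.30 in proliferation, transition and senescence. In spleen Tbxas1 lay between 7.44 and 8.76, with differences of -0.22 ± 0.23, 0.17 ± 0.23 and 0.00 ± 0.23 at the 3 stages, and every group overlapped with wild type.

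Hpgd, the enzyme that inactivates prostaglandins, was higher in MLL-ENL-ERtm marrow, with a call in proliferation and transition. The proliferation arrays read 13.91, 13.84, 12.77 and 13.93, and the transition arrays 12.83, 13.77, 13.73 and 13.84. The senescence arrays read 13.23, 13.44 and 12.78, and the wild-type arrays 11.53, 11.57, 11.62 and 11.13. The 11 MLL-ENL-ERtm arrays lay above all 4 wild-type arrays and overlapped among themselves. Of all genes 7.46% lay wholly above wild type in proliferation and 1.9% in transition. Hpgd was 4.45-fold higher in proliferation (2.15 ± 0.27, adjusted p = 0.00238 by limma) and 4.24-fold higher in transition (2.08 ± 0.27, adjusted p = 0.00247). In senescence it was 1.69 ± 0.30 higher, with no overlap, as for 3.97% of genes, but missed the threshold (adjusted p = 0.066). It passed there without wild-type array 2 (1.72, adjusted p = 0.0496). The order of the means was proliferation (13.61), transition (13.54), senescence (13.15) and wild type (11.46), and the first 3 did not differ beyond their spread.

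The second Hpgd probe set ran in the same direction with more spread. It read 9.20, 8.26, 7.66 and 8.35 in proliferation, 8.66, 8.45, 8.18 and 8.15 in transition, 8.95, 9.63 and 7.45 in senescence and 7.77, 7.34, 6.87 and 6.60 in wild type. The differences were 1.22 ± 0.41, 1.22 ± 0.41 and 1.53 ± 0.44 (adjusted p = 0.322, 0.336 and 0.596 by limma over 20393 probe sets), and transition alone lay wholly above wild type. With the Xist level as a covariate the Hpgd differences were 2.16, 2.09 and 1.69 (adjusted p = 0.021, 0.013 and 0.123 by limma). Of 11 B cell markers 5, 4 and 0 were called lower in proliferation, transition and senescence, and of 10 neutrophil and 6 monocyte markers none was called. Over all genes 0.282%, 0.42% and 0.0484% were called in either direction. All 6 monocyte markers were fitted above wild type in each state. Their mean lay between 12.19 and 12.56 in wild type, 12.85 and 13.45 in proliferation, 12.20 and 13.45 in transition and 12.55 and 13.47 in senescence. Proliferation array 3 and transition array 1, the lowest of their groups in Hpgd, also had the lowest monocyte means of their groups (12.85 and 12.20), whereas senescence array 3, the lowest of its group in Hpgd, had the highest (13.47). The neutrophil mean lay between 14.20 and 14.35 in wild type, 14.46 and 14.59 in proliferation, 14.14 and 14.55 in transition and 14.34 and 14.64 in senescence. The part of cell composition in the Hpgd result was not tested. Closest to Hpgd over the 15 marrow arrays were Hoxa5, Hoxa9 and Olfm1, at a distance of 0.40, 0.45 and 0.49 against a median of 0.99. Hpgd itself had an SD of 1.01 over these arrays. Hoxa5 and Hoxa9 are homeobox genes known as targets of MLL fusion proteins.

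In spleen no difference of Hpgd was called. Wild type read 9.95, 10.15, 10.91, 10.55 and 10.71, the early arrays 9.77, 9.68 and 10.17, the progression arrays 10.02, 9.24 and 9.40 and the terminal arrays 6.70, 10.76 and 9.88. Each stage overlapped with wild type, and terminal array 1 was the lowest of all 14. The differences were -0.58 ± 0.63, -0.90 ± 0.63 and -1.34 ± 0.63 (adjusted p = 0.599, 0.342 and 0.122 by limma). Without terminal array 2, the highest of its group, the terminal difference passed (-2.17, adjusted p = 0.014 by limma). That fit kept the low terminal array 1 (6.70). The other terminal arrays read 10.76 and 9.88, against 9.95 to 10.91 in wild type. The second probe set differed by -0.19 ± 0.23, -0.56 ± 0.23 and -0.36 ± 0.23, with overlap at each stage.

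Alox5ap, the 5-lipoxygenase activating protein, was higher in spleen at every disease stage. Wild type read 11.24, 10.78, 10.58, 10.70 and 10.99. The early arrays read 12.16, 12.10 and 13.31, the progression arrays 12.65, 13.01 and 12.52 and the terminal arrays 13.40, 13.79 and 13.10. All 9 disease arrays lay above all 5 wild-type arrays, as did 12.3%, 12.2% and 21.4% of genes at the 3 stages. The difference was 3.18-fold at the early stage (1.67 ± 0.26, adjusted p = 0.000679 by limma), 3.65-fold in progression (1.87 ± 0.26, adjusted p = 0.000249) and 5.94-fold at the terminal stage (2.57 ± 0.26, adjusted p = 5.67e-06).

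Between stages the terminal Alox5ap level lay above progression on all arrays (0.70 ± 0.29, adjusted p = 0.152), as did 12.9% of genes. It was 0.90 ± 0.29 above the early stage with overlap (adjusted p = 0.076), and 1.30 above it without early array 3 (adjusted p = 0.00198 by limma). Early array 3 had the highest Alox5ap level of the first 2 stages and also their highest mean of 10 neutrophil markers (13.11). Of these neutrophil markers 9, 10 and 10 were called higher at the 3 stages, against 7.35%, 9.29% and 18.1% of all genes. Their mean was 11.08 to 11.71 in wild type and 12.24 to 13.32 in disease. Of 6 monocyte markers 4, 5 and 5 were called higher, and Csf1r was called lower at the early stage (-0.92 ± 0.21, adjusted p = 0.00839 by limma) and read -0.21 ± 0.21 and -0.48 ± 0.21 later. This marker was named after its values were seen. The part of neutrophils and monocytes in the Alox5ap result was not tested. Closest to Alox5ap over the 14 spleen arrays were Apobr, Tmem40 and Adssl1, at a distance of 0.18, 0.19 and 0.20 against a median of 1.08. Alox5ap itself had an SD of 1.12 over these arrays.

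In marrow Alox5ap was high everywhere, at 14.34 to 14.90 on all 15 arrays. It differed from wild type by 0.26 ± 0.13, 0.14 ± 0.13 and 0.24 ± 0.14, with overlap and no call. This level was at the 99.7th percentile of marrow genes, and whether the probe set could have shown a further rise was not tested.

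Ltc4s, the synthase of leukotriene C4, lay low in both tissues and was not called in any comparison. In marrow it ranged from 5.87 to 7.08, both on transition arrays, and wild type stayed between 6.62 and 6.70. In spleen wild type read 6.29, 5.23, 5.10, 5.20 and 5.67, and the terminal arrays read 4.79, 5.20 and 4.93, a difference of -0.53 ± 0.24 (adjusted p = 0.113 by limma). With the Xist level as a covariate that difference was -0.81 and passed (adjusted p = 0.012). The highest wild-type array was again the one at 24 months of tamoxifen.

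**Figure D4:**
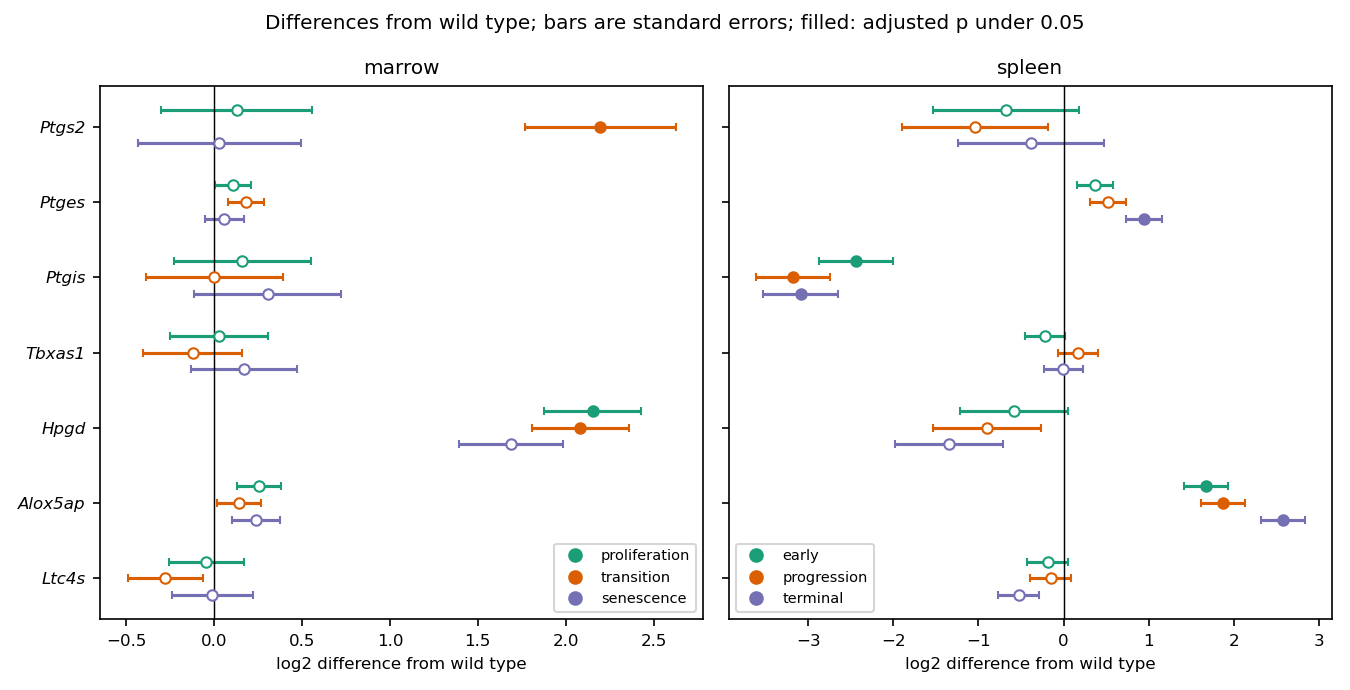
Log2 differences of the 7 genes from wild type in marrow (left) and spleen (right), with standard errors as bars. Filled points have an adjusted p under 0.05. The filled points are Ptgs2 (2.20) and Hpgd (2.15 and 2.08) in marrow, and Ptgis (-2.44 to -3.17), Alox5ap (1.67 to 2.57) and Ptges (0.94) in spleen.

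The response to the fusion was compared between tissues as the mean difference of the 3 MLL-ENL-ERtm groups from wild type in marrow minus that in spleen, in a limma fit over all 29 arrays. Of the 7 members, 3 were called, against 14% of all genes. For Ptgis the mean difference was 0.15 in marrow and -2.90 in spleen, a contrast of 3.06 ± 0.49 (adjusted p = 0.000118). For Hpgd it was 1.98 in marrow and -0.94 in spleen, a contrast of 2.92 ± 0.57 (adjusted p = 0.000846). For Alox5ap it was 0.21 in marrow and 2.04 in spleen, a contrast of -1.83 ± 0.23 (adjusted p = 8.57e-06), with its marrow level at the 99.7th percentile as given above. For Ptgs2 the contrast was 1.49 ± 0.79 and missed the threshold (adjusted p = 0.244). The months of tamoxifen differed between the tissues, with at most 8 in marrow and up to 24 in spleen, so tissue and duration cannot be told apart at the later stages. Whether some marrow and spleen came from the same mouse is not stated, and the fit took all arrays as independent.

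Around the members lie the other genes of the pathway, a list of 50 phospholipases, synthases, lipoxygenases, receptors and transporters of which 41 were measured. In marrow 0 of the 41 were called in any of the 3 comparisons with wild type. Their median difference was 0.00 in proliferation, 0.03 in transition and 0.01 in senescence, against 0.01, 0.04 and 0.00 over all genes. Cyp4f18, which inactivates leukotriene B4, had the smallest p of the list in proliferation at 1.21 ± 0.24 (adjusted p = 0.062 by limma). All 4 arrays lay above wild type for Cyp4f18, as for 7.46% of all genes.

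In spleen the pathway list moved in both directions. At the early stage 6 of 41 were higher and 3 lower, in progression 7 and 1, and at the terminal stage 14 and 9. Over all genes the shares called higher were 7.35%, 9.29% and 18.1%, and those called lower 8.55%, 9.96% and 16.3%. The median difference of the list was 0.09, 0.20 and 0.12. Of 11 lipoxygenases and leukotriene enzymes 2 were higher and 1 lower at the early stage, 2 and 0 in progression and 4 and 2 at the terminal stage. Lta4h, which makes leukotriene B4, rose by 1.84 ± 0.29, 1.99 ± 0.29 and 2.22 ± 0.29 at the 3 stages, with adjusted p = 0.000713, 0.000324 and 4.60e-05 by limma. Mgst2, a microsomal enzyme that can also make leukotriene C4, rose by 1.94 ± 0.33, 1.90 ± 0.33 and 2.54 ± 0.33 with adjusted p = 0.00131, 0.00120 and 4.76e-05.

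Among receptors, Ltb4r1, the leukotriene B4 receptor of neutrophils, rose by 2.49 ± 0.37, 2.53 ± 0.37 and 3.46 ± 0.37 (adjusted p = 0.000491, 0.000324 and 8.41e-06 by limma). Cysltr1, a receptor of cysteinyl leukotrienes, was 1.05 ± 0.45 higher at the early stage without a call and rose by 1.84 ± 0.45 and 2.71 ± 0.45 later. Ptgir, the prostacyclin receptor, rose by 1.73 ± 0.15, 1.49 ± 0.15 and 2.63 ± 0.15 (adjusted p = 2.94e-05, 3.84e-05 and 7.51e-08), while Ptgis, which makes its ligand, fell on the same arrays. All disease arrays lay above all wild-type arrays for Ptgir, Ltb4r1, Lta4h and Mgst2, as did 12.3%, 12.2% and 21.4% of all genes at the 3 stages.

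Of the enzymes that break eicosanoids down, Ptgr1, a prostaglandin reductase that also acts on leukotriene B4, rose by 2.42 ± 0.24, 2.58 ± 0.24 and 3.12 ± 0.24 (adjusted p = 5.69e-05, 2.75e-05 and 7.82e-07 by limma). Cyp4f18 fell by 0.56 ± 0.14 at the early stage (adjusted p = 0.012), and read -0.08 ± 0.14 and 0.30 ± 0.14 later. Outside the enzymes of breakdown, Mgst3, a microsomal glutathione transferase, fell by 2.27 ± 0.18 at the terminal stage (adjusted p = 1.15e-06) and differed by -0.17 ± 0.18 and 0.02 ± 0.18 before. Directly between stages Mgst3 was 4.91-fold lower at the terminal stage than in progression (adjusted p = 1.07e-05) and 4.31-fold lower than at the early stage (adjusted p = 1.50e-05). Ptgir was 2.21-fold and 1.86-fold higher in the same comparisons (adjusted p = 0.000853 and 0.00465). In both comparisons stage cannot be told apart from months of tamoxifen, and against progression not from sex either. The counts of neutrophil and monocyte markers given above for Alox5ap are from the same arrays, and the part of these cells in the pathway results was not tested.

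**Figure D5:**
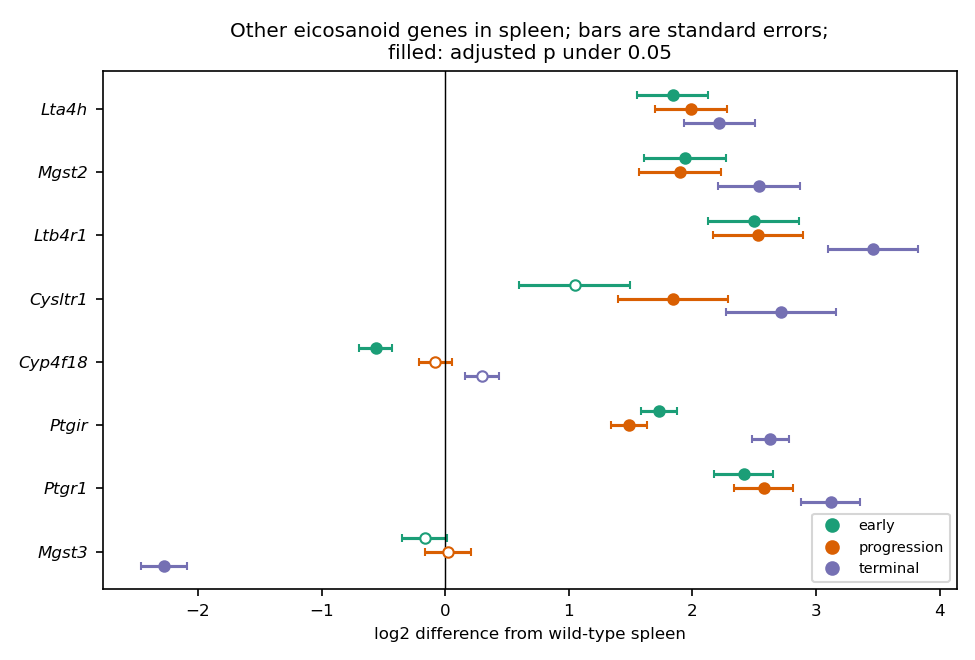
Log2 differences from wild-type spleen of 8 other pathway genes named in the text, at the 3 stages, with standard errors as bars. Not drawn are the phospholipases Pla2g2d and Pla2g5. Their mean differences over the 3 stages were -2.47 ± 0.34 and -0.91 ± 0.15 in the fit over all 29 arrays. Filled points have an adjusted p under 0.05. Lta4h, Mgst2, Ltb4r1, Ptgir and Ptgr1 lie between 1.49 and 3.46 at all stages, and Mgst3 lies near 0 until the terminal stage (-2.27).

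In the contrast of responses between tissues, the pathway genes that rose at all 3 spleen stages had the same sign as Alox5ap. They were named for their rise in spleen, which enters the contrast, so this sign was largely set by that choice. The contrast was -2.70 ± 0.28 for Ptgr1 (adjusted p = 7.13e-07), -2.61 ± 0.33 for Ltb4r1 (adjusted p = 8.64e-06) and -2.07 ± 0.31 for Mgst2 (adjusted p = 4.77e-05), by limma. It was -1.64 ± 0.22 for Ptgir (adjusted p = 1.11e-05) and -1.64 ± 0.28 for Lta4h (adjusted p = 0.000199). For each of them the mean difference from wild type was at most 0.38 in marrow and at least 1.95 in spleen. The contrast was also negative for Cysltr1 (-1.43 ± 0.47, adjusted p = 0.0433) and Ptges2 (-0.61 ± 0.16, adjusted p = 0.0106), by limma. It was positive for Cyp4f18 (1.13 ± 0.23, adjusted p = 0.00153 by limma). The phospholipases Pla2g2d (1.70 ± 0.49, adjusted p = 0.0193) and Pla2g5 (0.82 ± 0.22, adjusted p = 0.0113) were positive too, by limma.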

How the data were processed

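Biotin-labelled RNA of 29 samples (15 marrow, 14 spleen) was hybridised to arrays of 22690 probe sets. The authors deposited log2 values made with RMA, affy and limma, per the submitters' processing notes; versions are not given in the sources used here. The platform annotation gave 1 symbol to 20393 probe sets, several to 691 and none to 1606. The brightest probe set in a tissue stood for its gene (12394 genes). Dim probe sets were kept, detection calls were not used, and arrays give no read depth. The 4 groups of a tissue entered 1 fit (limma 3.58.1, R 4.3.3), with p-values adjusted by Benjamini-Hochberg at 0.05. Alternatives changed the normalization, probe set rule, filter, variance model, covariates and arrays included. The code was tested on simulated data. Likeness is the root mean square distance of centred levels, with the 3 closest genes named. Of the pathway list, at most 6 genes with the smallest p were named in a comparison. In the contrast between tissues every called gene of that list was named. Figures used matplotlib 3.10.9. Members, lists and motifs were chosen with earlier results of these data known. Same-numbered arrays correlated at -0.43 to 0.55, so numbers were not used as pairs.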

Additional observations from a re-analysis of the deposited data

Results flagged for a closer look

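Outlying arrays were looked for in 28 groups of 4 or 5 arrays of a member, of which 6 held one by Dixon's test; chance gives about 1 in 20. Ptgs2 was low in wild-type marrow 4 (4.73). Ptgis was high in wild-type marrow 2 (8.20) and Tbxas1 in proliferation marrow 1 (10.72), the arrays with the highest stromal means. Hpgd was low in proliferation marrow 3 (12.77) and transition marrow 1 (12.83), both still above wild type. Ptges was high in wild-type spleen 1 (5.33), from 24 months of tamoxifen.

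The response to the fusion differed between marrow and spleen for Alox5ap (-1.83), Hpgd (2.92) and Ptgis (3.06), each tested by limma as a contrast over all arrays. No explanation was tested.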

How the results depend on the processing

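The calls of Hpgd in marrow, of Ptgis, Alox5ap and Ptges in spleen and of the 3 contrasts between tissues held in every alternative that could be run on them and without each array in turn. The Ptgs2 call in transition held in 4 of 9 alternatives, and its adjusted p ran from 0.00463 to 0.182. For transition against wild-type marrow 1 of 2 members was left with trend and robust eBayes, among genes above the median level (Ptgs2 not tested), with the mean of all probe sets, in a fit of only the groups compared, with the Xist level as a covariate and with the replicate number as a block (Ptgs2 2.20, adjusted p = 0.052 by limma). That block, run although the numbers do not pair the samples, changed the count of called members in no other comparison. More members were called with array weights: 2 in proliferation (Alox5ap beside Hpgd), 1 in senescence (Hpgd) and 2 in terminal against early spleen (Alox5ap and Ptges). In senescence 1 (Hpgd) was also called with trend and robust eBayes and in a fit of only the groups compared, and in terminal against early spleen 1 (Alox5ap) among genes above the median level.

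Without single arrays the count ran from 1 to 2 in transition, 0 to 1 in senescence, 2 to 3 in progression spleen, 3 to 4 in terminal spleen and 0 to 1 in terminal against early spleen, and was constant in the other 8 comparisons. Over all genes it ran from 12 to 73 in proliferation (35 with all arrays), 21 to 665 in transition (52) and 4 to 31 in senescence (6). Hpgd in terminal against early spleen ran from -1.59 to 0.44 (-0.77 with all arrays), and turned sign without terminal array 1, and Ptges in senescence against transition marrow turned to 0.018 with array weights (-0.12 without); neither was called. Of 103 changes of sign, 101 concerned uncalled differences below 1 standard error. Leaving out both spleen arrays with pancreas signal, chosen after the data were seen, changed no count of called members. Array weights also called Ltc4s in transition (-0.61, against -0.28), Hpgd in terminal spleen (-1.85) and Ptges in progression spleen (0.72), and a fit of only the groups compared called Hpgd in progression spleen (-0.90, adjusted p = 0.029 by limma). The low signal of Ptgs2, Ptges and Ltc4s near the lower quartile limits what can be said of them.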
